A study of Mus musculus with 7 samples.

Results

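Fatty acid synthesis and lipid droplet coating were followed through 10 genes, Fasn, Acaca, Acly, Scd1, Scd2, Elovl1, Elovl5, Srebf1, Me1 and Plin2, chosen by name from 24381 genes seen in at least 3 cells. Their mRNAs were counted by Drop-seq, a droplet method that tags the 3′ end of each captured mRNA with a cell barcode and a unique molecular identifier (UMI), in whole mammary tumors of 7 mice, 1 library per mouse. All 7 mice are labelled MMTV-PyMT; HK2 f/f with a wild type genotype, on C57BL/6, so the MMTV promoter drives the polyoma middle T antigen (PyMT) in mammary epithelium and both copies of Hk2 are floxed. They were taken as controls that keep Hk2, although a protocol note shared by every sample speaks of systemic Hk2 deletion, and whether Hk2 was intact was not tested. The labels place collection 3 months after a tumor became palpable, and tamoxifen was given to the study's mice once a tumor could be felt. The sample titles fall into a CB series (replicates 1, 2, 3 and 4) and a WT series (replicates 5, 7 and 8), and tumors labelled as Hk2-deleted were not analysed here. With a single group of mice, the comparisons set cell classes against each other within the same mouse.

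In lipogenic cells, citrate leaves the mitochondria and ATP citrate lyase (Acly) splits it into acetyl-CoA, acetyl-CoA carboxylase (Acaca) turns that into malonyl-CoA, and fatty acid synthase (Fasn) builds palmitate from both with NADPH, part of which comes from cytosolic malic enzyme (Me1). The stearoyl-CoA desaturases Scd1 and Scd2 insert a double bond, the elongases Elovl1 and Elovl5 lengthen saturated and polyunsaturated chains, and Srebf1 encodes SREBP1, the transcription factor that drives much of this program. Plin2 (adipophilin) coats lipid droplets and the milk fat globule. The lactating mammary gland is among the most lipogenic tissues, and macrophages can store lipid in Plin2-coated droplets.

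The members lie on 4 chromosomes of GRCm38 (mm10, GENCODE vM21 gene bounds, exons and introns included). Fasn is at chr11:120805846-120824547, Acly at chr11:100476353-100528000 and Srebf1 at chr11:60199089-60222581, all on the minus strand, with Acaca at chr11:84129672-84401651 on the plus strand. Scd1 (chr19:44394455-44407879, minus) and Scd2 (chr19:44293674-44306864, plus) are neighbours. Elovl5 (chr9:77917364-77984519, plus) shares chromosome 9 with Me1 (chr9:86581371-86695953, minus), and Elovl1 (chr4:118428093-118432953, plus) shares chromosome 4 with Plin2 (chr4:86648386-86670060, minus). Exon bases overlapped another gene for Elovl1 (53 bases, opposite-strand Cdc20), Srebf1 (109 bases, opposite-strand Rai1, and 66 bases, Mir6922), Me1 (30 bases, opposite-strand A330041J22Rik) and Scd2 (61 bases, Mir5114). Since use of strand in counting is not given in the sources used here, reads from those stretches cannot be assigned to 1 gene.

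Promoters are shown for 4 members, without Scd1, which had the largest difference against fibroblasts, endothelial cells, macrophages and T/NK cells. Fasn and Acly were called lower in a tumor cluster than in the other tumor cells. Elovl5 and Plin2 were called lower in tumor cells than in macrophages. Plin2 was also called higher in tumor cells than in hormone-sensing cells (log2 2.26), the largest difference of a member there. RefSeq windows of 300 bases (250 before to 50 after the start site, GRCm38.p6) were matched for 8 of the 10 members, all but Scd1 and Scd2. Both strands were searched for the E-box word CACGTG, for TCACNCCAC as one form of the sterol regulatory element, for the CCAAT box by its own 5 letters and for GGGCGG, the GC box, and capitals mark the matches. Fasn is chr11:120824498-120824797 (minus), Acly chr11:100527951-100528250 (minus), Elovl5 chr9:77917115-77917414 (plus) and Plin2 chr4:86670010-86670309 (minus), each printed 5′ to 3′ along the gene.
Fasn: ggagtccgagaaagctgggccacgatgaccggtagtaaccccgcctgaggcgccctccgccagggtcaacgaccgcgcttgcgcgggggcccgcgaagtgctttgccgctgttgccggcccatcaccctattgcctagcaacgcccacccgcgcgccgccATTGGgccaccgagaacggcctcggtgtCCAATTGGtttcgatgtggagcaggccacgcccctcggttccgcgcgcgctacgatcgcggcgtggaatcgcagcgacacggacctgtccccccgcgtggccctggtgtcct
Acly: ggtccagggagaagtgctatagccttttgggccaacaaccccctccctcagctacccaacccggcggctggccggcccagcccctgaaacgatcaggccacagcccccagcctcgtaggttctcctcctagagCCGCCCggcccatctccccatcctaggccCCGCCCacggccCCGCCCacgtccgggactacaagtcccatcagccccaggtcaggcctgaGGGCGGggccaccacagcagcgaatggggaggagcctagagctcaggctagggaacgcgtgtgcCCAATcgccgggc
Elovl5: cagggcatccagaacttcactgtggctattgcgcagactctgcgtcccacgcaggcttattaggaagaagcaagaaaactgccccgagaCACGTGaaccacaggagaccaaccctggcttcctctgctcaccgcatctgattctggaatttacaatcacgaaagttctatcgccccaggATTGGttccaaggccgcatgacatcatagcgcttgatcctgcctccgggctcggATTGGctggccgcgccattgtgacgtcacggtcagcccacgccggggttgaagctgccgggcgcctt
Plin2: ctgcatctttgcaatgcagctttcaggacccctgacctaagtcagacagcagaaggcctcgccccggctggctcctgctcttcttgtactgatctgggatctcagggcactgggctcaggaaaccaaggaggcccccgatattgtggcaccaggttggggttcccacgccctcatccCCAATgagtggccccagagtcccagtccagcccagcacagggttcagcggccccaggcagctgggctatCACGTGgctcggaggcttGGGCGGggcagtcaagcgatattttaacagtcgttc
The E-box word stood in the Elovl5 window, 161 bases before the start, and in the Plin2 window, 4 bases before it, so in 2 of the 12 member windows, against 7.15% of 32851 promoter windows of the same length. CCAAT stood 3 times in Fasn (90, 62 and 59 bases before the start, the last 2 overlapping), and was found in 8 of the 12 windows of the members (7 of the 8 members), where 37.4% of all windows hold it. GGGCGG stood 4 times in Acly and was found in 7 of the 12 member windows, from 5 of the 8 members (35.7% of all windows). TCACNCCAC was in none of the 12 member windows and in 1.24% of all windows. These matches describe letters only, and none was tested for binding.

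The matrices gave 15047 cells with 200 to 6000 genes (1133 to 4780 per mouse, with medians of 527 to 694 UMIs and 362 to 467 genes per cell), and 71.3% to 91.1% of the UMIs of each matrix lay in them. Clustering without the members and pathway genes placed 14133 cells in 7 marker-defined classes: 6137 tumor, 1703 hormone-sensing, 284 myoepithelial, 1025 fibroblast, 142 endothelial, 2629 macrophage and 2213 T/NK cells. UMIs were summed per mouse and class (43 sums of at least 10 cells), which gave myoepithelial sums in 5 mice and endothelial sums in 3. Levels are given as CPM, the UMIs of a gene scaled to 1000000 UMIs of all genes in the same sum. Depth set the resolution, since 3 UMIs were worth 1.56 to 20.7 CPM in tumor sums but 89.7 to 98.4 CPM in endothelial sums and 267 CPM in the T/NK sum of replicate 8, and these limits cover counting error only. The summed level of the 7 tumor markers was 32206 to 65332 CPM in tumor cells and still 663 to 15429 CPM in macrophage and T/NK sums, and the part of free tumor RNA in any level was not tested beyond the values below. Myoepithelial sums held 10225 to 39701 CPM of the tumor list and 1146 to 8798 CPM of their own. They also held 1371 to 4324 CPM of the fibroblast markers and 42.5 to 1704 CPM of the pericyte markers. The adipocyte markers Adipoq, Cidec, Plin1, Adrb3 and Lep were at 0 in every class. Pairs of libraries shared at most 1 cell barcode.

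Tumor cells carried more Scd1, Srebf1 and Plin2 mRNA than hormone-sensing cells, fibroblasts and T/NK cells and more Scd1 and Srebf1 than macrophages, whereas Acly was called in none of these comparisons. Scd1 was also called higher than in myoepithelial cells, and Scd1, Srebf1 and Plin2 than in endothelial cells, on fewer mice and with calls that several alternatives lost. Each difference came from an edgeR quasi-likelihood fit blocked by mouse, and a gene was called at a Benjamini-Hochberg adjusted p under 0.05 over all 6634 genes tested. Of the 10 members, 9 passed the filter on low counts and Acaca did not. Against T/NK cells 7 of the 9 were called higher in tumor cells, where 30.0% of all genes were, and 1 was called lower (21.6% of all genes). Against macrophages 5 were called higher (28.7% of all genes) and 2 lower (23.5%). Against fibroblasts 4 were called higher (26.3%) and 0 lower (22.8%), with 1 lower both at an unadjusted p under 0.05 and by DESeq2 (2778 of all 24361 genes). Against endothelial cells 4 were called higher (10.9%) and 0 lower (8.37%), with 0 lower at an unadjusted p under 0.05. Both by DESeq2 and with RLE factors 1 was called higher and 1 lower. Of all genes, DESeq2 called 170 higher and 1038 lower (of 24361) and RLE factors gave 301 and 761 (of 6634). Without replicate 8 there was 1 call in all, and the share of all genes there is not given. Hormone-sensing cells gave 3 higher (17.3%) and 0 lower (13.1%), also 0 unadjusted and by DESeq2 (1450 of all 24361 genes). Myoepithelial cells gave 2 higher (13.2%) and 1 lower (11.9%), the latter close to the share of all genes. By DESeq2 they gave 0 higher and 1 lower (344 and 1608 of all 24361 genes). The members' median log2 difference was 2.09 against T/NK cells, 1.34 against macrophages, 1.64 against endothelial cells, 0.54 against fibroblasts, 0.33 against hormone-sensing cells and 0.10 against myoepithelial cells.

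The zero line of these comparisons depends on the scaling. With TMM factors the median log2 difference of all genes was 0.47 against endothelial, 0.21 against myoepithelial, 0.17 against fibroblast, 0.16 against macrophage, 0.16 against T/NK and 0.09 against hormone-sensing cells, while RLE factors gave 0.02, -0.16, -0.12, 0.05, 0.12 and -0.01 in the same order. The share of calls that were higher in tumor cells accordingly moved from 56.5% to 28.3% for endothelial, from 52.5% to 25.4% for myoepithelial and from 53.6% to 35.6% for fibroblast cells, and DESeq2 gave 14.1%, 17.6% and 33.0%. For hormone-sensing cells the share was 56.9% with TMM, 48.0% with RLE and 44.3% by DESeq2.

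**Figure D1:**
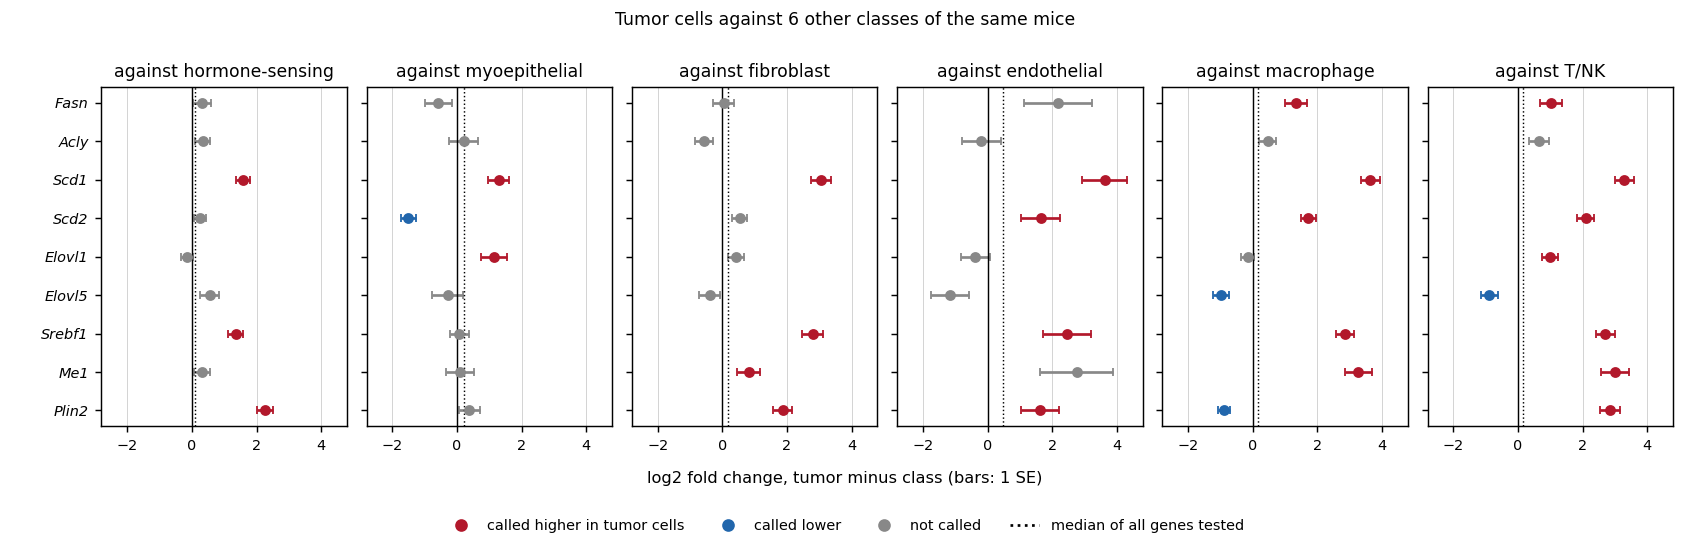
Log2 fold change of 9 members between tumor cells and each of 6 classes of the same mice, with bars of 1 SE, colored by whether the gene was called higher, lower or not called, and a dotted line at the median of all 6634 genes tested. Scd1 lay to the right of 0 in all 6 panels (1.28 to 3.64), Plin2 was called on both sides, and Acly stayed grey throughout.

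Scd1 encodes the main stearoyl-CoA desaturase of lipogenic tissues. In tumor cells its level was 327, 326, 138 and 214 CPM in replicates 1, 2, 3 and 4 of the CB series and 330, 934 and 332 CPM in replicates 5, 7 and 8 of the WT series. Hormone-sensing cells of the same mice had 99.1, 58.2, 66.0, 90.7, 213, 404 and 48.0 CPM in the same order. Every tumor value exceeded the hormone-sensing value of the same mouse, although the ranges overlapped, with replicate 7 the highest in both classes. The log2 difference was 1.58 ± 0.23 (SE, n = 7 mice, edgeR adjusted p = 7.22e-08), and 1.84 and 1.28 within the CB and WT series. Replicate 7 was also the highest for Scd1 in myoepithelial, fibroblast, macrophage and T/NK cells.

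Macrophages had 3.45 to 49.9 CPM of Scd1 (median 23.4) and T/NK cells 0 to 112 CPM (median 39.7), and all of these lay below the lowest tumor value. The log2 differences were 3.64 ± 0.29 against macrophages (SE, n = 7, edgeR adjusted p = 8.80e-17) and 3.29 ± 0.30 against T/NK cells (SE, n = 7, edgeR adjusted p = 1.85e-14), both in 7 of 7 mice. Fibroblasts had 0 to 125 CPM and were lower by 3.06 ± 0.31 on the log2 scale (SE, n = 7, edgeR adjusted p = 4.01e-13). Myoepithelial cells came closest, with 150, 160, 32.2, 510 and 173 CPM in replicates 1, 4, 5, 7 and 8, below the tumor cells of each mouse (log2 difference 1.28 ± 0.32, SE, n = 5, edgeR adjusted p = 0.00153). That call was not made by DESeq2, without the block, with at least 500 genes per cell, without mixed cells or in the CB series alone (log2 0.98), where the sign was kept. In endothelial cells Scd1 rested on 3 UMIs (59.8, 32.8 and 0 CPM), and tumor cells of the same 3 mice had 8.36 times the level (95% counting interval 2.85 to 40.6).

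Scd1 was also read in barcodes with fewer than 200 genes. These may hold free RNA, shallow cells or both, and their make-up was not tested. Its median there was 136 CPM, tumor cells lay above the value of their own library in 7 of 7 mice, and macrophages, T/NK cells, fibroblasts and endothelial cells lay below it in every mouse. Hormone-sensing cells lay above it in 2 of 7 mice and myoepithelial cells in 3 of 5. At least 1 Scd1 UMI was found in 21.9% of tumor cells (median depth 684 UMIs) and in 1.63% of T/NK cells (median 419). Thinned to 300 UMIs per cell, the shares were 9.08% of 5494 and 0.561% of 1783 cells, after 643 and 430 shallower cells were left out. The unthinned share was 1.64% in macrophages, next to the T/NK share, and whether these low shares reflect expression was not tested. In hormone-sensing cells it was 10.3%, and their CPM lay below the low-gene barcodes in 5 of 7 mice.

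**Figure D2:**
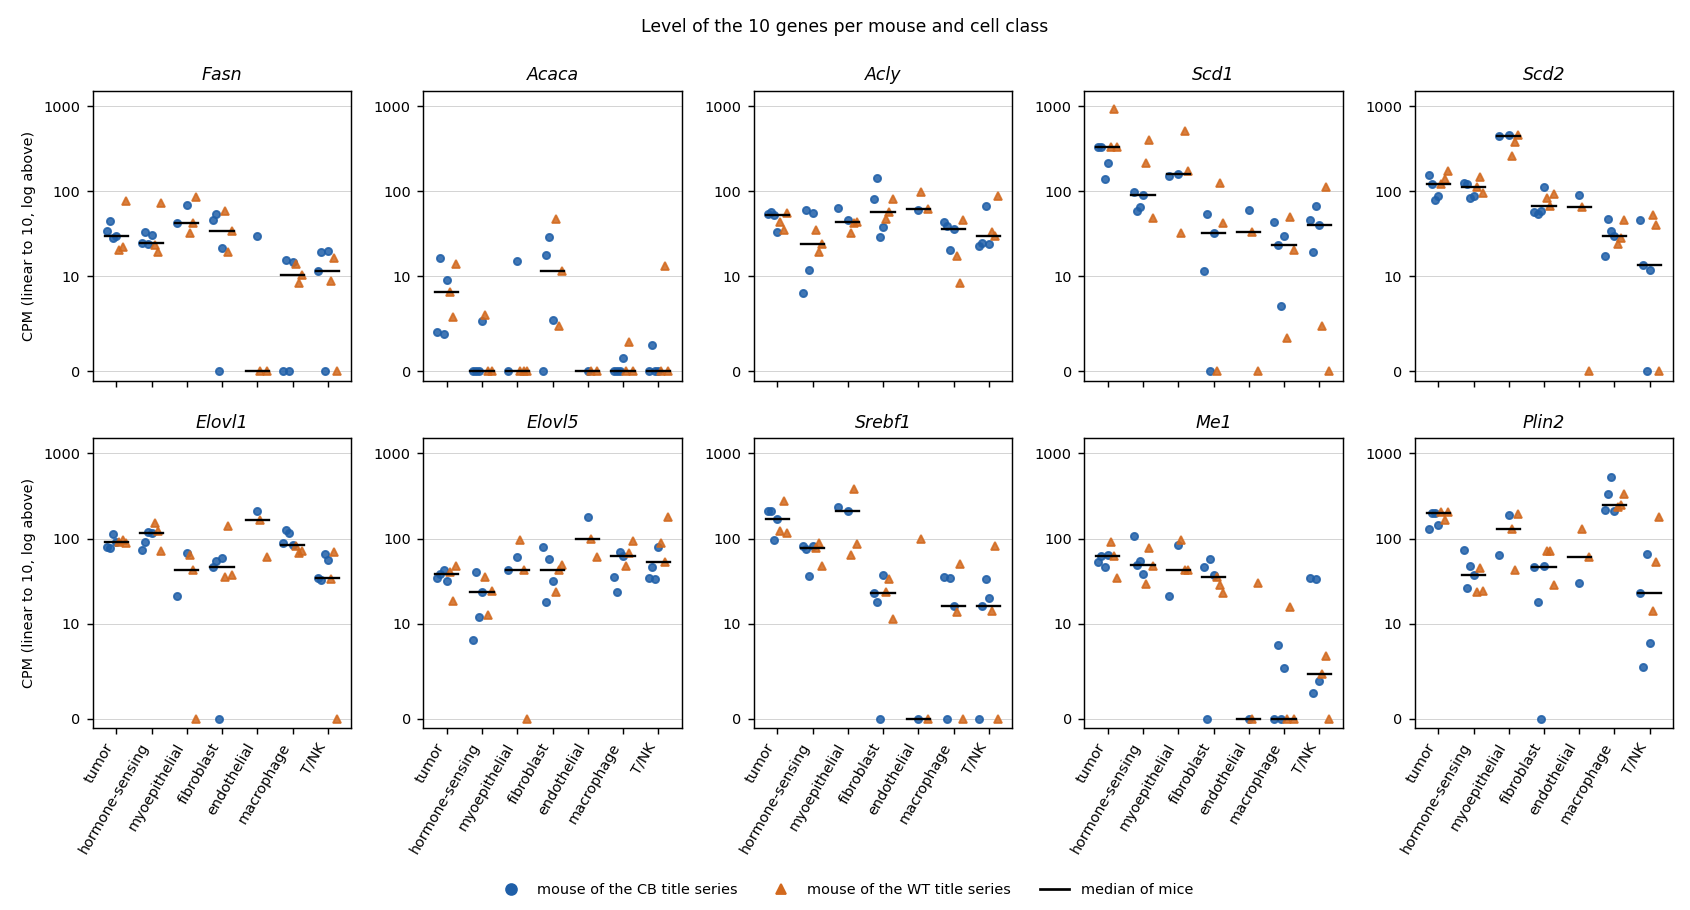
Level of each of the 10 members per mouse (points, by title series) in 7 cell classes, in CPM on an axis that is linear to 10 and logarithmic above, with black bars at the median of mice. Scd1 was highest in tumor cells, Scd2 in myoepithelial cells (257 to 457 CPM) and Plin2 in macrophages (209 to 524 CPM).

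Scd2, the second desaturase, had another order of classes. Its level was 450, 457, 257, 382 and 453 CPM in the myoepithelial cells of replicates 1, 4, 5, 7 and 8, and 154, 87.9, 120, 140 and 173 CPM in the tumor cells of the same mice. The ranges did not overlap, and the log2 difference was -1.51 ± 0.24 (SE, n = 5, edgeR adjusted p = 7.21e-07; -1.87 in the CB series and -1.10, not called, in the WT series). At least 1 Scd2 UMI was present in 24.6% of myoepithelial, 11.1% of tumor and 1.45% of T/NK cells. The call was made in 18 of 21 alternatives. When cells with markers of another class were left out, 2 mice with 7094 and 7927 UMIs remained in the myoepithelial class. There the call was lost and the fitted sign turned (log2 7.44), a value that rests on these small sums. With classes from marker UMIs, where 3 myoepithelial sums of 10371 to 26796 UMIs were left, the call was lost as well. Hormone-sensing cells (84.0 to 148 CPM, median 112) and tumor cells (78.4 to 173 CPM, median 123) overlapped almost entirely, with a log2 difference of 0.25 ± 0.19 (SE, n = 7, edgeR adjusted p = 0.373).

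Both immune classes carried less Scd2 than tumor cells. Macrophages had 17.6 to 46.9 CPM (log2 difference 1.72 ± 0.24, SE, n = 7, edgeR adjusted p = 1.03e-08) and T/NK cells 0 to 52.1 CPM (2.09 ± 0.27, SE, n = 7, edgeR adjusted p = 2.44e-09), in neither case overlapping the tumor values. Fibroblasts, at 54.2 to 113 CPM, missed the threshold (0.54 ± 0.24, SE, n = 7, edgeR adjusted p = 0.0510). Endothelial cells, with 5 UMIs, gave 1.64 ± 0.60 (SE, n = 3, edgeR adjusted p = 0.0430), a call made in 4 of 21 alternatives.

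The balance between both desaturases differed by class. Scd1 UMIs made up 63.8% to 87.0% of Scd1 and Scd2 UMIs together in tumor cells (median 70.9%, n = 7 mice). The share was 32.4% to 73.3% in hormone-sensing cells (median 44.4%) and 11.1% to 57.1% in myoepithelial cells (median 25.9%, n = 5), lower than in the tumor cells of every mouse. Fibroblasts had 0% to 65.0% (median 22.2%), again lower in 7 of 7 mice, on 2 to 47 UMIs per mouse. Macrophages had 12.5% to 71.4% (median 33.3%, 6 to 44 UMIs per mouse), lower than in tumor cells in 6 of 7 mice, replicate 1 being the exception, and the 2 endothelial sums with such UMIs had a median of 36.7%. In T/NK cells, with 2 to 46 UMIs, the share was 8.33% to 100% (median 66.1%) and the tumor share was higher in 4 of 6 mice. Since UMIs were not divided by transcript length, the share compares classes and not the levels of the 2 genes.

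**Figure D3:**
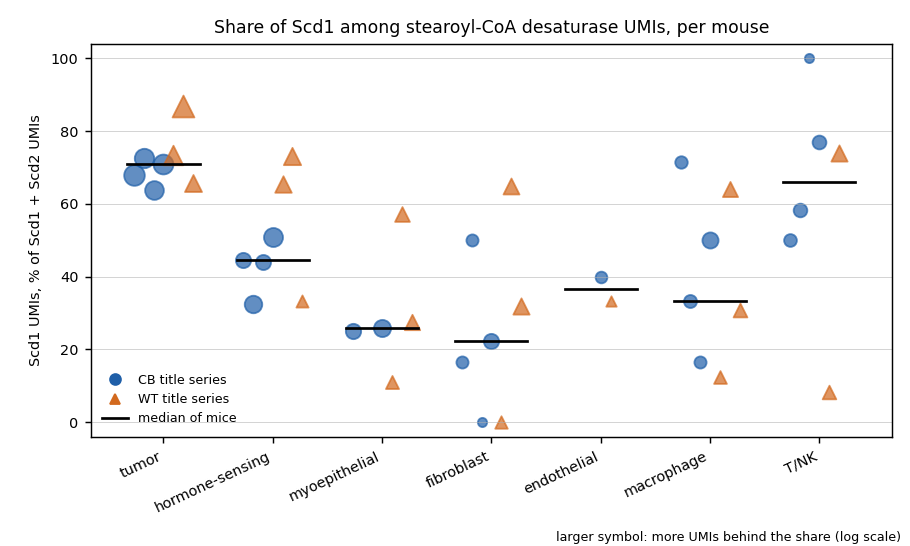
Share of Scd1 among Scd1 and Scd2 UMIs (percent, linear axis) in each mouse (points, by title series) and class, with black bars at the median of mice. Tumor cells spread over 63.8% to 87.0%, while the median was 44.4% in hormone-sensing and 25.9% in myoepithelial cells.

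Srebf1 encodes SREBP1, whose targets include Fasn, Acaca, Acly and Scd1. Tumor cells had 210, 209, 96.8, 169, 123, 274 and 118 CPM in replicates 1, 2, 3, 4, 5, 7 and 8, and hormone-sensing cells 36.0 to 89.8 CPM (median 76.8). The groups did not overlap, and the log2 difference of 1.35 ± 0.22 (SE, n = 7, edgeR adjusted p = 1.20e-06) was 1.40 and 1.41 within the CB and WT series. Myoepithelial cells had 235, 213, 64.3, 382 and 86.3 CPM, on both sides of the tumor cells of the same mice, with a log2 difference of 0.07 ± 0.30 (SE, n = 5, edgeR adjusted p = 0.888) whose sign changed with RLE factors (-0.31). Fibroblasts (0 to 37.5 CPM), macrophages (0 to 49.9 CPM) and T/NK cells (0 to 82.7 CPM) all lay below every tumor value. The log2 differences were 2.80 ± 0.33, 2.86 ± 0.28 and 2.70 ± 0.29 (SE, n = 7, edgeR adjusted p = 8.74e-11, 1.62e-13 and 4.99e-12). In endothelial cells all 3 Srebf1 UMIs came from replicate 5, and the ratio of tumor to endothelial level was 4.87 (95% counting interval 1.66 to 23.7), and the call was lost by DESeq2, with RLE factors, in the WT series and without replicate 4 or 8. Barcodes under 200 genes held a median of 85.1 CPM of Srebf1, which tumor cells exceeded in 7 of 7 mice and fibroblasts, macrophages and T/NK cells in 0.

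The enzymes that make palmitate were read from far fewer UMIs. Fasn, the synthase itself, stood at 34.4, 44.4, 28.1, 29.5, 20.2, 22.3 and 76.0 CPM in tumor cells of replicates 1, 2, 3, 4, 5, 7 and 8 (240 UMIs in all). Macrophages had 0 to 15.6 CPM and T/NK cells 0 to 19.8 CPM, below every tumor value. The log2 differences were 1.34 ± 0.33 (SE, n = 7, edgeR adjusted p = 5.37e-04) and 1.02 ± 0.35 (SE, n = 7, edgeR adjusted p = 0.0121), and neither was called in the WT series alone (1.12 and 0.86). Without replicate 2 the T/NK call was lost. Barcodes under 200 genes had a median of 26.7 CPM of Fasn, which tumor cells (median 29.5 CPM) exceeded in 5 of 7 mice, hormone-sensing cells in 3 of 7 and macrophages in 0. Myoepithelial cells had 32.2 to 86.3 CPM of Fasn, more than the tumor cells of the same mouse in 5 of 5 mice, on 1 to 9 UMIs per mouse, and the difference of -0.59 ± 0.42 did not pass (SE, n = 5, edgeR adjusted p = 0.331). Hormone-sensing cells (19.2 to 72.0 CPM) and fibroblasts (0 to 58.9 CPM) overlapped tumor cells, and the fibroblast difference (0.04 ± 0.33) turned negative with RLE factors (-0.25) and by DESeq2 (-0.24).

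Acaca, whose product is the committed intermediate of the pathway, was close to the limit of detection. Tumor cells had 3.87 to 16.5 CPM from 59 UMIs in 7 mice, fibroblasts 0 to 47.1 CPM from 12 UMIs and hormone-sensing cells 0 to 5.91 CPM from 9 UMIs. Only 5 UMIs were found in T/NK cells, 2 in macrophages, 2 in myoepithelial cells and 0 in endothelial cells, where the floors of 89.7 to 98.4 CPM lie above every tumor value. Tumor cells had 7.12 times the macrophage level (95% counting interval 1.89 to 60.2) and 0.947 times the myoepithelial level of the same 5 mice (0.246 to 8.07). With no filter on low counts (24361 genes) Acaca was called higher in tumor cells than in hormone-sensing cells (log2 1.61 ± 0.51, SE, n = 7, edgeR adjusted p = 0.0165) and in macrophages (2.55 ± 0.70, SE, n = 7, edgeR adjusted p = 0.00180), but not against the other 4 classes.

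Acly, the source of cytosolic acetyl-CoA, was called in no comparison between tumor cells and another class. Tumor cells had 33.4 to 57.1 CPM (median 53.3), fibroblasts 29.0 to 145 CPM (median 57.7), endothelial cells 59.8, 98.4 and 61.1 CPM, and macrophages 9.35 to 46.4 CPM (median 36.4). Hormone-sensing cells had the lowest median (24.0 CPM, with a lowest value of 8.26 CPM), with a log2 difference of 0.33 ± 0.24 (SE, n = 7, edgeR adjusted p = 0.336). Fibroblasts exceeded the tumor cells of the same mouse in 6 of 7 mice, yet the log2 difference of -0.56 ± 0.27 missed the threshold (SE, n = 7, edgeR adjusted p = 0.0849), and DESeq2 called it. Endothelial cells were higher in 3 of 3 mice on 7 UMIs. Against T/NK cells (22.9 to 88.9 CPM) the difference was 0.65 ± 0.30 (SE, n = 7, edgeR adjusted p = 0.0654).

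Me1, the malic enzyme that yields NADPH, was found in the epithelial classes and in fibroblasts (median 35.3 CPM), and was low in macrophages and T/NK cells. Its level was 34.6 to 92.6 CPM in tumor cells (median 62.2), 29.5 to 107 CPM in hormone-sensing cells and 21.4 to 96.5 CPM in myoepithelial cells, and these 3 classes overlapped. In macrophages 4 of 7 mice had 0 UMIs and the highest value was 15.6 CPM. T/NK cells ranged from 0 to 34.4 CPM, which lay below the tumor cells of each mouse. The log2 differences were 3.27 ± 0.41 (SE, n = 7, edgeR adjusted p = 4.98e-10) and 3.01 ± 0.43 (SE, n = 7, edgeR adjusted p = 2.72e-08), and with at least 500 genes per cell Me1 did not pass the filter and was not tested. Fibroblasts had 0 to 58.0 CPM, lower in 6 of 7 mice (0.81 ± 0.34, SE, n = 7, edgeR adjusted p = 0.0448), a call made in 7 of 21 alternatives. In endothelial cells a single UMI gave a ratio of 6.91 (95% counting interval 1.23 to 275). Barcodes under 200 genes held a median of 41.2 CPM of Me1, above the macrophages of every mouse.

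The elongases departed from this order. Elovl1, which extends saturated and monounsaturated chains to very long lengths, had 78.7 to 112 CPM in tumor cells, 72.0 to 154 CPM in hormone-sensing cells and 68.6 to 125 CPM in macrophages, with overlap throughout. T/NK cells (0 to 69.5 CPM) and myoepithelial cells (0 to 68.6 CPM) lay below every tumor value. The log2 differences were 0.99 ± 0.25 (SE, n = 7, edgeR adjusted p = 5.39e-04) and 1.14 ± 0.41 (SE, n = 5, edgeR adjusted p = 0.0322), and the second was lost in most alternatives, RLE and DESeq2 among them. The T/NK call was lost in the WT series alone (0.87) and with at least 500 genes per cell (0.56). Endothelial cells had 209, 164 and 61.1 CPM from 14 UMIs.

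Elovl5, which elongates polyunsaturated chains, was the one member called lower in tumor cells than in both immune classes. Macrophages had 35.1, 23.4, 68.9, 62.0, 48.3, 68.6 and 92.9 CPM in replicates 1, 2, 3, 4, 5, 7 and 8, and tumor cells 34.4, 38.1, 42.6, 32.1, 40.4, 18.7 and 48.4 CPM. The ranges overlapped, with replicate 2 the only mouse in which the tumor value was higher. The log2 difference was -0.97 ± 0.25 (SE, n = 7, edgeR adjusted p = 8.41e-04), and -0.65 (not called) and -1.42 within the CB and WT series. T/NK cells had 33.3 to 178 CPM (median 52.9), higher than tumor cells in 5 of 7 mice (-0.88 ± 0.27, SE, n = 7, edgeR adjusted p = 0.00544), and the highest of them rested on 2 UMIs. That call was lost without replicate 4 (-0.74), in the CB series alone (-0.64), with classes from marker UMIs (-0.56) and with at least 500 genes per cell (-0.85). Endothelial cells had 179, 98.4 and 61.1 CPM, above tumor cells in 3 of 3 mice (-1.16 ± 0.58, SE, n = 3, edgeR adjusted p = 0.163). The Elovl5 window printed above holds 1 of the 2 E-box words found among the members.

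Plin2, the droplet coat protein, had its highest level in macrophages, and the 1 E-box word in its window shown above lies next to the start site. Macrophages had 219, 336, 524, 209, 235, 249 and 330 CPM in replicates 1, 2, 3, 4, 5, 7 and 8, and tumor cells 130, 200, 198, 146, 205, 166 and 207 CPM. The macrophage value exceeded the tumor value in 7 of 7 mice and the ranges did not overlap. The log2 difference of -0.89 ± 0.20 (SE, n = 7, edgeR adjusted p = 1.01e-04) was -0.96 and -0.79 within the CB and WT series. Hormone-sensing cells, by contrast, had 23.6 to 74.3 CPM, below all tumor values (2.26 ± 0.26, SE, n = 7, edgeR adjusted p = 7.14e-11). Fibroblasts (0 to 72.2 CPM) and T/NK cells (5.47 to 178 CPM, the highest from 2 UMIs) were also lower than the tumor cells of each mouse, by 1.87 ± 0.29 and 2.84 ± 0.31 on the log2 scale (SE, n = 7, edgeR adjusted p = 2.12e-07 and 1.67e-11). Myoepithelial cells spread over 42.5 to 194 CPM and did not differ detectably (0.38 ± 0.33, SE, n = 5, edgeR adjusted p = 0.434). Endothelial cells had 29.9, 131 and 61.1 CPM from 7 UMIs, lower than the tumor cells in 3 of 3 mice (1.62 ± 0.58, SE, n = 3, edgeR adjusted p = 0.0405), a call made in 9 of 21 alternatives and by neither DESeq2 nor RLE.

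At least 1 Plin2 UMI was found in 14.7% of macrophages (median depth 544 UMIs), 14.8% of tumor cells (684) and 1.13% of T/NK cells (419). After thinning to 300 UMIs the shares were 7.38%, 4.71% and 0.449%, in the order of the CPM. Barcodes under 200 genes had a median of 90.4 CPM, which macrophages exceeded in 7 of 7 mice and tumor cells in 6 of 7, while hormone-sensing cells exceeded it in 0 of 7. The macrophage class joins 3 clusters, and the name is near a tie for the one led by Retnla and Ccr2 (717 of 2629 cells), which scored almost alike on the macrophage and dendritic cell marker lists and had no macrophage marker among its 10 leading genes. The cluster led by C1q genes had 230 to 546 CPM of Plin2 and that led by Retnla and Ccr2 49.5 to 441 CPM, with the first higher in 7 of 7 mice. The third, led by Ccl8, Pf4 and Mrc1, had 269 to 582 CPM and exceeded the C1q-led cluster in 5 of 6 mice. Without the Retnla and Ccr2 cluster, a choice made after seeing the data, the log2 differences against macrophages were -1.21 for Plin2 and -0.90 for Elovl5.

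When the 7 classes were ordered by mean level for each gene, 7 of the 60 pairs of neighbours were separated in every mouse that had both. The order was taken from the same values, so this count describes the levels and is not a test. The share over all genes was not counted. For Scd1 only tumor over myoepithelial cells was, for Srebf1 only tumor over hormone-sensing cells and for Plin2 only macrophages over tumor cells. Fasn was higher in myoepithelial than in tumor cells and in hormone-sensing than in T/NK cells. Scd2 was higher in myoepithelial than in tumor cells and in fibroblasts than in endothelial cells (n = 3). The endothelial Scd2 values (89.7, 65.6 and 0 CPM) lay at or below the worth of 3 UMIs in their sums. For Acly, Acaca, Elovl1, Elovl5 and Me1 no pair of neighbours was separated in every mouse.

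Within the tumor class, 5 clusters were compared, and a test was made for the cluster with the highest summed level of 7 milk protein genes. It held 2489 cells and was led by Saa1, Saa2, Spp1, Ltf and Slpi. Of the 7 milk genes only Csn3, the kappa-casein gene, was higher there in 7 of 7 mice (20743 to 41176 CPM against 8148 to 30003 CPM), while the other 6 were higher in 1 to 3 of 7, so it is named here by its leading genes. Scd1 had 500, 363, 239, 230, 459, 1022 and 341 CPM in the cluster and 259, 306, 121, 202, 291, 730 and 326 CPM in the other tumor cells of replicates 1, 2, 3, 4, 5, 7 and 8. It was higher in the cluster in 7 of 7 mice, with overlapping ranges and a log2 difference of 0.60 ± 0.11 (SE, n = 7, edgeR adjusted p = 1.88e-04). Of the 9 members tested over 6621 genes, 1 was called higher (7.14% of all genes) and 3 lower (7.34% of all genes).

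The 3 members called lower in the Saa1/Saa2-led cluster were Fasn, Acly and Scd2. Fasn had 12.4, 18.1, 38.7, 23.5, 0, 15.6 and 19.0 CPM there and 43.2, 58.5, 26.2, 34.2, 26.2, 37.7 and 109 CPM in the other tumor cells, lower in all mice but replicate 3 (log2 difference -1.12 ± 0.28, SE, n = 7, edgeR adjusted p = 0.00583). Scd2 had 45.1 to 128 CPM against 84.3 to 228 CPM, lower in 7 of 7 mice (-0.49 ± 0.14, SE, n = 7, edgeR adjusted p = 0.0126). Acly had 25.8 to 45.3 CPM against 37.6 to 66.3 CPM, lower in 7 of 7 (-0.57 ± 0.19, SE, n = 7, edgeR adjusted p = 0.0427). The other tumor cells were pooled, and their clusters differed. Mean Acly was 34.6 CPM in the Saa1/Saa2-led cluster and 29.1 and 35.0 CPM in those led by Csn1s1 and by Ifit3. It was 50.9 and 71.9 CPM in those led by Scgb2b27 and by Rbp7. Mean Scd2 was 89.7, 94.8, 68.9, 155 and 159 CPM in that order. The Saa1/Saa2-led cluster was the lowest tumor cluster in 0 mice for Acly and Scd2 and in 4 of 7 for Fasn. The 2 desaturases were called in opposite directions in the pooled comparison. None of the 4 was called with 9 principal components, at resolution 1.0 (where Srebf1 was the only call, at 0.58), with the lipid genes kept in the clustering or without the mouse as a block. In the first 3 of these settings the cluster with the highest milk gene level was another one, led by Lalba and Emid1, by Car6 and Scgb2b27, and by Ifit3 and Rsad2 in that order. Signs turned there, with Acly at 0.63 and 0.68 and Scd2 at 0.14 and 0.46 (9 components and resolution 1.0), and Scd1 at -0.041 with the lipid genes kept. The CB series alone gave only the Scd1 call (0.64), the WT series gave none (Scd1 0.57), and without replicate 7 Scd1 and Fasn were left.

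**Figure D4:**
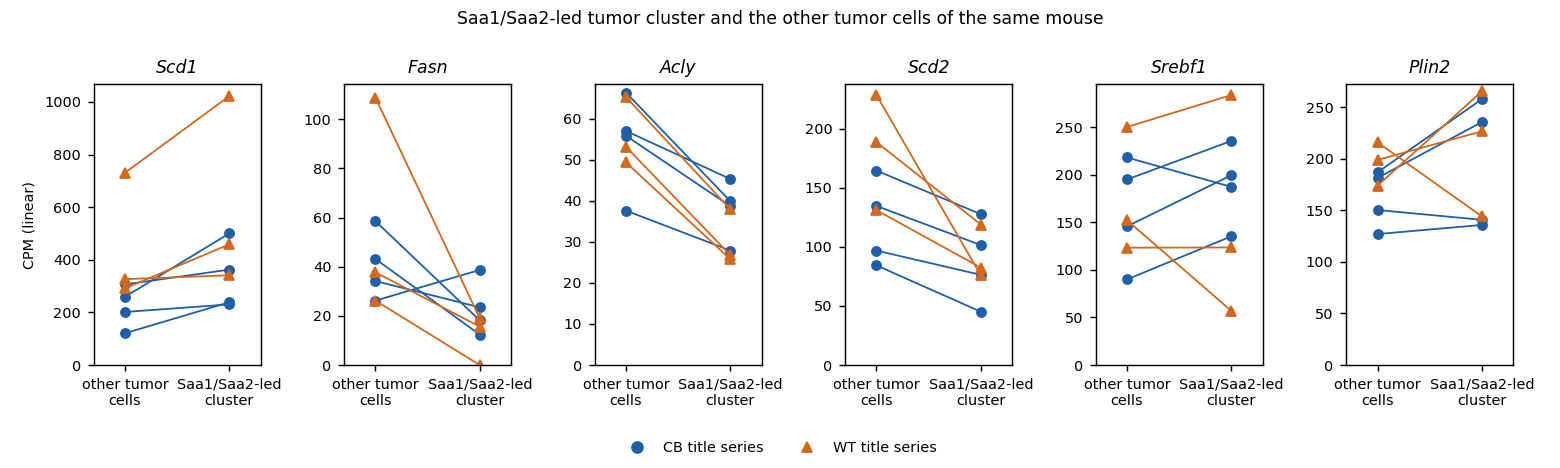
Level of 6 members (CPM, linear axes that start at 0) in the Saa1/Saa2-led tumor cluster and in the other tumor cells, with a line for each mouse, by title series. Scd1 rose along 7 of 7 lines and Scd2 and Acly fell along 7 of 7, while Srebf1 and Plin2 crossed.

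The tumor cluster led by Rbp7, Hmmr, Mki67 and Top2a, the last 3 known from dividing cells, had the highest Acly of all tumor clusters in 4 of 6 mice (71.9 ± 26.4 CPM, SD, n = 6) and the highest Fasn in 3 of 6 (56.8 ± 32.2 CPM). Its cells were the deepest of the class, with a median of 2370 UMIs. Fasn was highest in the cluster led by Csn1s1, Edn1 and Krt14 in 4 of 7 mice (44.7 ± 36.4 CPM, SD, n = 7) and lowest there in 2 of 7. The 4 highest values, in replicates 1, 4, 5 and 8, rested on 3, 7, 2 and 3 UMIs. The cluster led by the interferon-induced Ifit3 and Rsad2 had the highest Srebf1 in 4 of 7 mice (205 ± 75.7 CPM, SD, n = 7). The cluster led by Scgb2b27 and Emid1 had the higher mean (216 ± 63.5 CPM, SD, n = 7). In replicates 1 and 7 the Ifit3-led cluster was highest narrowly (242 against 238 CPM and 294 against 290 CPM), and in replicate 8 its value rested on 2 UMIs. Its Elovl5 was lowest in 4 of 7 mice (14.7 ± 13.3 CPM), with 0 or 1 UMI in each of those. Scd1 had 117 to 341 CPM in the cluster led by Csn1s1, Edn1 and Krt14 (mean 252, n = 7), where it was the lowest of the tumor clusters in 4 of 7 mice, and Scd2 was lowest there in 5 of 7. These levels of single clusters were not tested.

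Across mice, the level in tumor cells varied least for Elovl1 (highest over lowest 1.43) and Plin2 (1.60), and most for Scd1 (6.74). By title series, Scd1 was 138 to 327 CPM in the 4 CB tumors and 330 to 934 CPM in the 3 WT tumors. The gap lay between 327 CPM in replicate 1 and 330 CPM in replicate 5, and only replicate 7 stood far above. The other 9 members overlapped. The share of all genes without overlap was not counted, so no difference between the series is read from Scd1. What the title series stand for is not given in the labels. Mitochondrial genes were listed in replicates 7 and 8 only and were left out, and their part in these levels was not tested.

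The other genes of these pathways were taken from 7 lists of 115 genes, of which 110 were in the matrices and 64 passed the filter. Against T/NK cells 33 of the 64 were called higher in tumor cells and 7 lower (30.0% and 21.6% of all genes), against macrophages 24 and 18 (28.7% and 23.5%) and against fibroblasts 23 and 8 (26.3% and 22.8%). Hormone-sensing cells gave 18 and 13 (17.3% and 13.1%), endothelial cells 12 and 3 (10.9% and 8.37%) and myoepithelial cells 9 and 8 (13.2% and 11.9%), the last near the shares of all genes. With RLE factors the counts were 5 higher and 13 lower against myoepithelial cells (382 and 1123 of all 6634 genes), 7 and 3 against endothelial cells (301 and 761 of all genes) and 16 and 11 against fibroblasts (1074 and 1939 of all genes). In the list of fatty acid synthesis, elongation and desaturation, 9 of 10 genes tested were called higher against T/NK cells (30.0% of all genes), 7 against fibroblasts (26.3%), 5 against macrophages (28.7%), 4 against endothelial cells (10.9%), 3 against hormone-sensing cells (17.3%) and 1 against myoepithelial cells (13.2%, so no more than the share of all genes). None of the 10 was called lower by edgeR against T/NK cells, fibroblasts or endothelial cells, and none at an unadjusted p under 0.05 or by DESeq2. Of 6 other genes of NADPH supply 4 were tested, and these 4 were called lower in tumor cells than in macrophages, whereas Me1 was called higher there (3.27).

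Thrsp, a small lipogenic regulator of the mammary gland also known as Spot14, had the largest increase among the pathway genes against hormone-sensing cells (log2 4.11 ± 0.33, SE, n = 7, edgeR adjusted p = 5.93e-16), fibroblasts (6.22 ± 0.57, edgeR adjusted p = 2.42e-14) and T/NK cells (3.52 ± 0.35, edgeR adjusted p = 5.30e-13). Fabp5, a fatty acid binding protein, was higher in tumor than in hormone-sensing cells (271 ± 74.2 against 23.6 ± 24.5 CPM, SD, n = 7), and G0s2, an inhibitor of triglyceride breakdown, by 3.46 ± 0.35 on the log2 scale. Lpin2 and Dgat2 were lower in tumor than in hormone-sensing cells, and Dgat2, which makes triglycerides, had 10.7 ± 5.89 against 55.4 ± 28.9 CPM (log2 -2.60 ± 0.36, SE, n = 7, edgeR adjusted p = 2.72e-08). Lpl, lipoprotein lipase, was lower in tumor cells than in fibroblasts (-6.10 ± 0.26) and macrophages (-5.40 ± 0.26), Cd36, a fatty acid translocase, lower than in macrophages (-7.17 ± 0.38; 149 ± 48.4 CPM there and 0.865 ± 1.40 in tumor cells) and Fabp4 lower than in endothelial cells (1821 ± 2069 CPM there, SD, n = 3, and 3.67 ± 7.55 in tumor cells).

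Butyrophilin Btn1a1, a protein of the milk fat globule membrane, was higher in tumor cells than in macrophages (55.8 ± 37.8 against 0.385 ± 1.02 CPM, SD, n = 7) and than in myoepithelial cells (log2 2.66 ± 0.82, SE, n = 5, edgeR adjusted p = 0.0118). It was listed at 0 in endothelial cells, as was the elongase Elovl7. There 3 UMIs are worth 89.7 to 98.4 CPM, above the tumor mean of Btn1a1, so a 0 does not show absence. Mgll, monoglyceride lipase, was higher than in macrophages (4.04 ± 0.45) and lower than in endothelial cells (-1.52 ± 0.48). Against T/NK cells the largest decreases were those of Me2, the mitochondrial malic enzyme (-2.82 ± 0.30), the triglyceride-forming Dgat1 (-2.03 ± 0.27) and Agpat3 (-1.34 ± 0.26). Myoepithelial cells exceeded tumor cells in Fabp4, Mid1ip1 and Fads3 and fell below them in the triglyceride lipase Pnpla2 and in Elovl7. Further named genes were Dbi, the acyl-CoA binding protein (2438 ± 572 CPM in tumor and 365 ± 124 CPM in endothelial cells), Cpt1a, the entry enzyme of fatty acid oxidation (12.1 ± 6.89 CPM in tumor cells and 57.2 ± 30.6 CPM in fibroblasts), and Fads3 and Hacd1, higher in tumor than in T/NK cells by 3.12 ± 0.89 and 2.96 ± 0.64.

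In the Saa1/Saa2-led cluster 5 of 62 pathway genes were called higher (7.14% of all genes, a like share) and 11 lower (7.34% of all genes) than in the other tumor cells, and 4 of the 11 genes of cholesterol synthesis and uptake were among the lower. Thrsp (log2 -1.72 ± 0.17, SE, n = 7, edgeR adjusted p = 5.03e-09) and Insig1, which holds SREBP in the endoplasmic reticulum (-1.42 ± 0.32, edgeR adjusted p = 0.00197), were among the 3 largest decreases. Btn1a1 (1.11 ± 0.31), Hilpda, a droplet protein (0.68 ± 0.15), and Xdh, which binds butyrophilin on the milk fat globule (0.58 ± 0.19), had the largest increases. DESeq2 called 2 higher and 6 lower, and 332 and 355 of 23347 genes in all.

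**Figure D5:**
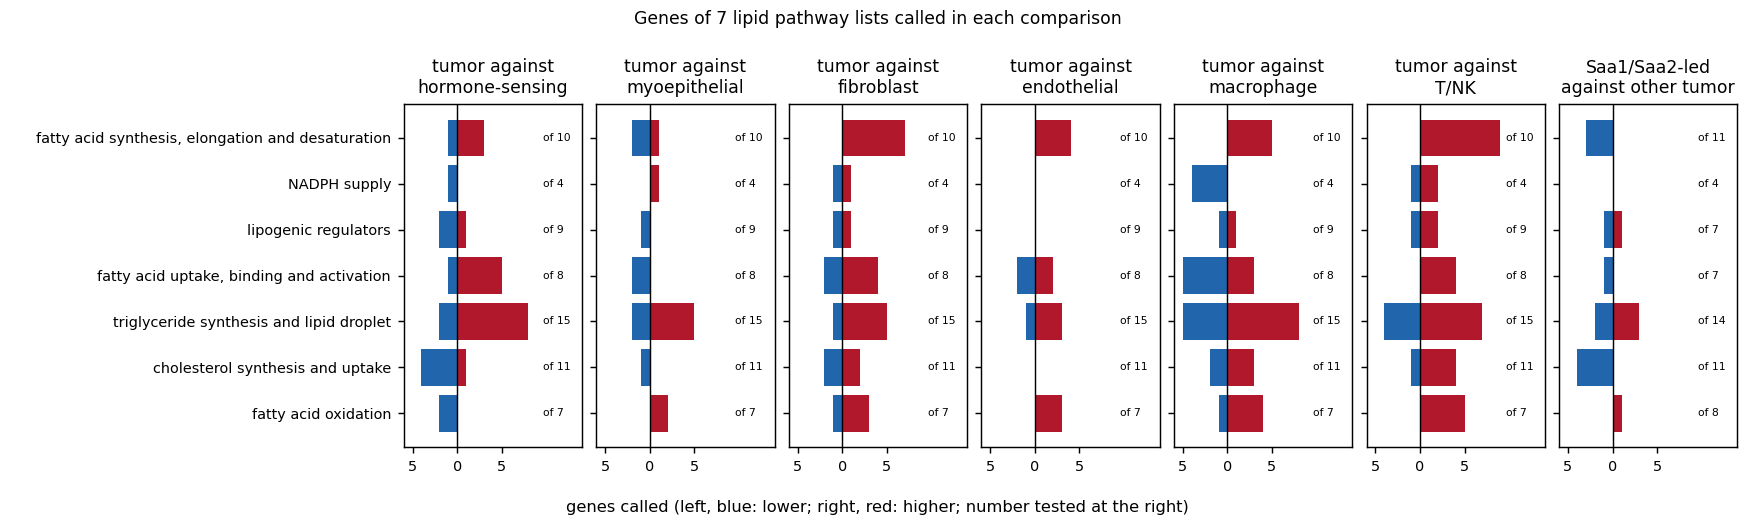
Number of genes of 7 lipid pathway lists called higher (right) or lower (left) in tumor cells against each of 6 classes, and in the Saa1/Saa2-led cluster against other tumor cells, with the number tested at the right of each bar. The fatty acid synthesis list reached 9 of 10 higher against T/NK cells, and the Saa1/Saa2-led cluster had 3 of its 11 tested genes lower.

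The members' levels were last compared with those of 3570 genes with a mean of at least 50 CPM, by Pearson's r of log2(CPM + 10) over the 43 sums, which share libraries and differ in depth and are given without a test. Most like Scd1 were Lcn2 (0.86), Csn3 (0.85) and Cp (0.84), and most like Srebf1 were Dbi (0.81), Csn3 (0.80) and Aqp5 (0.80). Scd2 was most like Slc29a1 (0.83), Lpp (0.79) and Tspan3 (0.76), and Plin2 most like Cd14 (0.71), Pla2g7 (0.69) and Cadm1 (0.69). Fasn was most like Scd2 (0.73), Ephx1 (0.68) and Ltbp3 (0.67), Me1 like Emp2, Aldh7a1 and Sox9 (0.75 each), and Elovl1 like Trappc6a (0.79), Card19 (0.76) and Polr2g (0.75). Lower values were found for Elovl5 with Zcchc6 (0.66), Ppp1r12c (0.65) and Ifngr2 (0.62), for Acaca with Smoc2 (0.61), Ptx3 (0.60) and Serf1 (0.59) and for Acly with Tuba1a (0.59), Serpinh1 (0.58) and Calu (0.55). Among the 45 pairs of members r was highest for Scd1 with Srebf1 (0.80) and lowest for Elovl5 with Me1 (-0.47).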

How the data were processed

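UMI counts were deposited by the authors as one gene-by-barcode matrix per tumor, made from Drop-seq reads (Nextera XT libraries, NextSeq 500). The paper's methods name mm10 with the PyMT sequence added, whereas the submitters' processing notes list STAR, FastQC, GRCh37.p13 and hg19, without versions, and the counting program and its annotation are not given in the sources used here. Each library came from the tumor of 1 mouse, so the mouse was the replicate, and the classes of 1 mouse were paired through their shared library.

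Mitochondrial genes were dropped, and barcodes with 200 to 6000 genes were kept. Seurat 5.3.0 (R 4.3.3) clustered genes seen in at least 3 cells on 580 variable genes (587 found, 7 members or pathway genes left out), with 20 principal components and resolution 0.6, since 9 components separated neither endothelial nor myoepithelial cells. Seed 1 was set at the start, and the principal component and cluster steps used fixed seeds of their own. Clusters were named from marker lists. A B/plasma cluster of 475 cells and a hemoglobin-led cluster of 439 cells entered no class. No doublet caller was run, and an alternative left out 4554 cells with markers of another class. UMIs were summed per mouse and class with at least 10 cells. The paper's analysis pooled cells, so edgeR 4.0.16 (TMM, quasi-likelihood, mouse as covariate, one fit over all classes) was used with Benjamini-Hochberg adjustment and a threshold of 0.05. Simulated sums were drawn from a pooled profile with the same spread for all genes and no mouse effect, and only tumor sums were changed. Of 77 genes with a log2 change of 2, among 5370 tested, 75 to 77 were called against hormone-sensing, fibroblast, macrophage and T/NK cells. Against myoepithelial cells 52 were called and against endothelial cells 25. With a log2 change of 1, 28 to 42 of 83 were called in the first 4 comparisons, 6 against myoepithelial and 0 against endothelial cells. Changes of that size were thus often missed even in this setting, and the rates in the real data were not tested.

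Correlations used log2(CPM + 10). Pathway genes were named as the 3 with the largest called increase and the 3 with the largest called decrease in each comparison, and like genes as the 3 with the highest correlation. One gene that this rule names is not reported here. The members and lists were chosen with earlier results of these data known. Alternatives numbered 22, 2 of them added after seeing the data, and covered clustering, class rules, filters, scaling, DESeq2 1.42.0, the block, each title series and each left-out replicate. Intervals are exact 95% intervals of counts. Python 3.11.15 with numpy 2.4.6, scipy 1.17.1, pandas 2.3.3 and matplotlib 3.10.9 was used for the rest.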

Additional observations from a re-analysis of the deposited data

Results flagged for a closer look

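A highest or lowest mouse stood apart from the rest of its class in 5 of the 60 groups of member levels examined, by the ratio of its gap to the group's range, and chance alone flags about 1 in 20 groups. All 5 rest on few UMIs. Fasn in hormone-sensing cells was 72.0 CPM in replicate 8, from 3 UMIs, and 33.5 CPM in the next mouse. Acaca in myoepithelial cells was 15.2 CPM in replicate 4, from 2 UMIs, and 0 in the other 4 mice. Acaca in T/NK cells was 13.2 CPM in replicate 7, from 4 UMIs, and 2.73 CPM in the next mouse. Elovl1 in T/NK cells was 0 in replicate 8, where the sum held 11250 UMIs and 3 UMIs correspond to 267 CPM, and 32.8 CPM in the next mouse. Me1 in fibroblasts was 0 in replicate 2, where 3 UMIs correspond to 54.2 CPM, and 22.9 CPM in the next mouse.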

How the results depend on the processing

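Under all 22 alternatives Scd1, Srebf1 and Plin2 kept direction and call against hormone-sensing cells, fibroblasts, macrophages and T/NK cells, as did Scd2 against macrophages and T/NK cells. Scd1 ranged over log2 differences of 1.28 to 2.51 against hormone-sensing cells and 2.69 to 4.26 against macrophages, and Plin2 over -1.22 to -0.58 against macrophages. The mouse block stands for the shared library of each mouse. Of the single-gene values, 1116 kept direction and side of the threshold, 109 lost and 22 gained the threshold and 51 changed sign. Causes were not tested. Classes from marker UMIs gave no value for the Saa1/Saa2-led cluster, and 9 components gave none for endothelial or myoepithelial cells.

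Against the Saa1/Saa2-led comparison's 4 calls, 0 were made with 9 components, with lipid genes kept in the clustering, without the replicate block or in the WT series, 1 at resolution 1.0, without mixed cells or in the CB series, and 2 to 3 with 1 replicate left out (2 without replicate 7). The cluster with the highest milk gene level was a different one with 9 components, at resolution 1.0 and with lipid genes kept, so those values compare other cells. The 4 endothelial calls became 2 with lipid genes kept, at least 500 genes per cell, at least 20 cells per sum, DESeq2, RLE factors or the macrophage class without its Retnla and Ccr2 cluster (chosen after seeing the data), 1 in either title series (the CB series holds 1 endothelial sum, assumed to vary like the other classes), and 1 to 3 with a replicate left out (2 without replicate 2, 4 or 5 and 1 without replicate 8). The 3 myoepithelial calls became 1 with at least 500 genes, marker UMIs, DESeq2 or either title series and 0 without mixed cells, where 2 mice were left. The 8 T/NK calls became 4 with at least 500 genes, where 6 members passed the filter (Fasn and Me1 were not tested and Elovl1 and Elovl5 lost their calls). With a replicate left out the counts were 7 to 8 for T/NK, 3 to 6 for fibroblast, 3 to 4 for hormone-sensing, 6 to 7 for macrophage and 2 to 3 for myoepithelial cells. Without the replicate block no other count changed by more than 1.5 times. These counts stand without the share of all genes called under each setting, so they describe only how far the calls held.

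Signs changed for these log2 values. In the Saa1/Saa2-led comparison, with 9 components Acly was 0.63, Scd2 0.14 and Elovl1 0.075, and at resolution 1.0 they were 0.68, 0.46 and 0.54. Elovl1 ran from -0.15 to 0.0037 with a replicate left out (0.0037 without replicate 4), Scd1 was -0.041 and Me1 -0.15 with lipid genes kept, and Plin2 was -0.14 with at least 500 genes and -0.055 in the WT series. Against myoepithelial cells Me1 was -0.012 at resolution 1.0, -0.015 with lipid genes kept, -0.011 with at least 20 cells, -0.19 by DESeq2, -0.26 with RLE, -0.050 in the CB series and -0.094 to 0.60 with a replicate left out (negative without replicate 1 or 7). Srebf1 was -0.022 with at least 500 genes, -0.26 by DESeq2, -0.31 with RLE, -0.091 in the CB series and -0.045 to 0.27 with a replicate left out (negative without replicate 2, 5 or 7). Acly was -0.17 by DESeq2 and with RLE and -0.012 in the CB series, and Plin2 -0.0090 with RLE. Without mixed cells Scd2 was 7.44 and Elovl5 0.32. Elovl5 was 0.55 with marker UMIs and -0.63 to 0.10 with a replicate left out (positive without replicate 4). Against hormone-sensing cells Fasn was -0.26 without mixed cells. Against fibroblasts Fasn was -0.048 with lipid genes kept, -0.069 with at least 20 cells, -0.070 without the replicate block, -0.24 by DESeq2, -0.25 with RLE, -0.14 in the WT series, -0.017 with the smaller macrophage class, -0.042 with the hemoglobin-led cluster added to tumor cells (also chosen after seeing the data) and -0.11 to 0.23 with a replicate left out (negative without replicate 3, 4 or 7). Against endothelial cells Acly was 0.13 with marker UMIs, 0.19 without the filter, 0.030 in the CB series (1 endothelial sum) and -0.37 to 0.16 with a replicate left out (positive without replicate 5), and Elovl1 was 0.38 with marker UMIs.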

Other observations

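Scd1 was also high in a cluster outside the 7 classes. The cluster led by Igkc, Ms4a1, Ighd, Iglc2 and Fcmr, genes of B and plasma cells, had 345, 438, 186 and 346 CPM of Scd1 in replicates 1, 2, 4 and 5, from 11, 51, 7 and 8 UMIs. T/NK cells of the same mice had 45.9, 19.1, 39.7 and 4.74 CPM, and tumor cells 327, 326, 214 and 330 CPM. The cluster lay above the T/NK cells in 4 of 4 mice and above the tumor cells in 3 of 4. Its summed tumor markers were 11805, 5887, 10595 and 691 CPM, against 7820, 1504, 4708 and 1668 CPM in T/NK cells. They were higher than in T/NK cells in replicates 1, 2 and 4 and lower in replicate 5. Whether the Scd1 UMIs of the cluster came from free tumor RNA was not tested. Mean levels of Srebf1, Scd2 and Plin2 in the cluster were 66.0, 36.2 and 27.8 CPM. The cluster was noticed after its values were seen, and no test was made.

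The hemoglobin-led cluster, whose leading genes also include PyMT, had 347 ± 272 CPM of Scd1, 229 ± 74.4 CPM of Srebf1 and 177 ± 60.9 CPM of Plin2 (SD, n = 4 mice). Elovl5 was higher in the Retnla and Ccr2 cluster, whose macrophage name is near a tie with dendritic cells, than in the C1q-led macrophage cluster in 6 of 7 mice (means 73.0 and 48.5 CPM).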
